A study of Mus musculus with 13 samples.

Results

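Mouse hearts and embryos were followed with droplet single-cell RNA sequencing, and the 30 genes described here carry out glycolysis, move glucose and lactate across membranes, or set the fate of pyruvate. The 30 genes were fixed by symbol, and all of them are among the 27998 genes of each count matrix. All animals were wild-type C57Bl/6J mice and no treatment is named. The groups differ in stage and in the tissue taken, and collection batch may differ with stage as well. Hearts were taken at embryonic days E12.5, E14.5 and E16.5 (2 libraries each) and at postnatal day 3 (P3), and embryos without head and limbs at E8.5 and E10.5 (2 libraries at E10.5). E8.5 had 1 library that was analysed, replicate 2, and the P3 matrix joins 2 sample records. Its barcodes carry suffixes of 2 wells, but nothing used here ties a well to a record, so P3 was taken as 1 sample, like E8.5, and both give values without a test. Of the 30 members, 4 (Hk2, Pfkl, Pgam1 and Slc16a3) had a P3 cardiomyocyte level in 1 well that differed more than 1.5-fold from that of the whole matrix. The matrix of E16.5 replicate 1 joins 2 sample records and counts as 1 library. Neither labels nor methods state how many embryos or hearts went into a library, and p-values measure the spread between libraries. The paper states that hearts of the different ages were collected in batches. From visual inspection of the batches within each stage, it reports significant differences at P3 only. The P3 matrix also lists far fewer barcodes than any other matrix. The part of batch in the stage differences was not tested.

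Glycolysis splits glucose into pyruvate in the cytosol, and it yields ATP without oxygen. Glucose enters the cell through transporters of the Slc2a family, hexokinase traps it, phosphofructokinase commits it, and the enzymes from triose phosphate isomerase to pyruvate kinase harvest ATP. Pyruvate is then reduced to lactate by lactate dehydrogenase and leaves the cell through Slc16a transporters, or it enters mitochondria, where pyruvate dehydrogenase oxidises it unless a pyruvate dehydrogenase kinase (Pdk) switches that complex off. The embryonic heart is known for its reliance on glucose and lactate, and the heart after birth for its use of fatty acids. Many of these steps are encoded by several genes, isozymes, of which one form is known from striated muscle (Pfkm, Pgam2, Eno3) or heart (Ldhb).

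Barcodes with at least 2000 unique molecular identifiers (UMIs, which count each captured transcript once) and at least 1% mitochondrial UMIs were kept, 67411 in all. Of these, 24047 were cardiomyocytes, with a troponin gene Tnnt2 of at least 1500 counts per 1000000 UMIs (CPM) in hearts or 500 in embryos, and 43364 were non-myocytes. The cardiomyocytes numbered 151 at E8.5, 191 and 201 at E10.5, 1733 to 3607 per heart library from E12.5 to E16.5, and 7145 at P3. Atrial-like cardiomyocytes (2953) had at least 2000 Myl7 CPM and a log2 ratio of Myl7 to Myl2 of at least 3, and ventricular-like ones (20228) at least 2000 Myl2 CPM and a log2 ratio below 1. Irx4, a ventricular transcription factor that took no part in this rule, was at 47.9 to 63.1 CPM in ventricular-like and 0.56 to 1.77 in atrial-like cells of the heart libraries. Libraries held between 67141166 and 259041468 UMIs, with a median of 13940 to 25403 per cardiomyocyte and 7324 to 26049 per non-myocyte. Pairs of libraries shared 0.612 to 1.44 times as many kept barcodes as chance gives. Levels below are CPM of nuclear genes, with mitochondrial UMIs left out of the total, summed over the barcodes of a class in 1 library. Fold changes come from edgeR fits on all UMIs with TMM scaling, another scale. They are given on the log2 scale with their standard errors, and p-values are adjusted over all genes of the fit, with a threshold of 0.05.

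The promoters of 6 members that carry the stage results are shown, 3 that fell between E12.5 and E16.5 in cardiomyocytes (Slc2a1, Ldha, Slc16a3) and 3 that rose (Ldhb, Eno3, Pgam2), a choice made after their values were seen. Each runs 5′ to 3′ on the strand of its gene from 250 bases before to 50 bases after the transcription start, in the RefSeq annotation of GRCm38.p6. Capitals mark ACGTG on either strand (CACGT on the opposite strand), 1 form of the core of the element that hypoxia-inducible factors bind. The other form of that core, GCGTG, was not marked or counted. It stands in the window of Ldhb and, on the opposite strand, in that of Eno3, among others. The windows are chr4:119108495-119108794 (plus strand), chr7:46845554-46845853 (plus), chr11:120948817-120949116 (plus), chr6:142507908-142508207 (minus), chr11:70656926-70657225 (plus) and chr11:5803747-5804046 (minus).
Slc2a1: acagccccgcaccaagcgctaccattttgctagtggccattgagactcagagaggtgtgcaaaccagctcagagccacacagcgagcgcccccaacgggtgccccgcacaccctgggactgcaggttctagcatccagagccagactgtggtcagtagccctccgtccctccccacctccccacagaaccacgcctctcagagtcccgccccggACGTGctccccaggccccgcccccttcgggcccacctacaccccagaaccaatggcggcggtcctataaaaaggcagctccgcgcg
Ldha: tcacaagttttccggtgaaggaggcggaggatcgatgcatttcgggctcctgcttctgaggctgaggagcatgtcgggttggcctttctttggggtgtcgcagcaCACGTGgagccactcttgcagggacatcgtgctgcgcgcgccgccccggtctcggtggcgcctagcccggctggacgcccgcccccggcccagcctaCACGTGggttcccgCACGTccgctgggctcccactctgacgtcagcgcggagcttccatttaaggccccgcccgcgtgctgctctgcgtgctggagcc
Slc16a3: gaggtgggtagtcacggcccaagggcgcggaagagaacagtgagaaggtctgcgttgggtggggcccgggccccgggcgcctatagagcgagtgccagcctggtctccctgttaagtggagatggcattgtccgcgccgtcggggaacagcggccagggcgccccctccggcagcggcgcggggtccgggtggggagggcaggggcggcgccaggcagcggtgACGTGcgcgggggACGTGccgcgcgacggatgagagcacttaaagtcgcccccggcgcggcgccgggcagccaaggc
Ldhb: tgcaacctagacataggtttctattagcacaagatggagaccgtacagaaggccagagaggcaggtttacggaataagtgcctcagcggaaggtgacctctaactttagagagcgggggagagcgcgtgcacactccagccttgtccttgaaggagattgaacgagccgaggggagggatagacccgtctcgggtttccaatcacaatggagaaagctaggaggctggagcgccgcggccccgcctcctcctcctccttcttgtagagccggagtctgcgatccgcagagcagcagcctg
Eno3: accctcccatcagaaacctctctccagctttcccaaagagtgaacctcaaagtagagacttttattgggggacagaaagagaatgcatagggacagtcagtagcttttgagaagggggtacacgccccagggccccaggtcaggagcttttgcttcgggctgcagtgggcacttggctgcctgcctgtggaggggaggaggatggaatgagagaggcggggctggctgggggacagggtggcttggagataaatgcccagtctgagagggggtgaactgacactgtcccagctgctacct
Pgam2: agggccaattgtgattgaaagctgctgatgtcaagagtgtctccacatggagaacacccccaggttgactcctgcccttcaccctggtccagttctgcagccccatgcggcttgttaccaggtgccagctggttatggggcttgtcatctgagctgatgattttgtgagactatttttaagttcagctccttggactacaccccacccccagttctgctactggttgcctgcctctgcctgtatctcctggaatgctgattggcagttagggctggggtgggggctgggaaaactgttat
The Ldha window holds 5 matches, of which 2 pairs overlap in CACGTG, the nearest beginning 34 bases before the start. The Slc16a3 window holds 2, at 27 and 14 bases before the start, and that of Slc2a1 holds 1, at 36 bases before it. The letters ACGTG do not occur in the windows of Ldhb, Eno3 and Pgam2. A promoter was listed for 28 of the 30 members (not for Slc2a3 and Slc2a4), and 14 of the 28 held a match at their first listed start, against 6447 of 32851 promoters (19.6%) of the same length. By direction between E12.5 and E16.5, the letters stood in 7 of 15 members that rose (Pdk2, Pfkm and Slc16a1 among them), 5 of 6 that fell and 2 of 7 that did not pass, so that the 3 risers shown do not stand for all that rose. A match says only that the letters are there.

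Summed over the 30 genes, cardiomyocytes spent a similar share of their transcripts on these steps from E12.5 to E16.5, while the non-myocytes spent less at each stage. The cardiomyocyte sum was 17196 and 16567 CPM at E12.5, 18465 and 19264 by E14.5 and 16157 and 16906 by E16.5. The E14.5 libraries lay above those of the other stages, and the E12.5 and E16.5 libraries overlapped. In the non-myocytes the sum was 5337 and 5348 at E12.5, 4595 and 4707 by E14.5 and 3400.4 and 3495 at E16.5, with no overlap between stages. At P3 the sums were 12819 in cardiomyocytes and 3129 in non-myocytes. Gapdh alone made up 7486 and 6897 of the cardiomyocyte sum at E12.5, so that the sum says little of the other members. By role, the mean of the E16.5 libraries was 0.352 times that of E12.5 for glucose entry, 1.04 times for upper glycolysis, 0.943 times for lower glycolysis, 1.03 times for lactate handling and 1.64 times for pyruvate entry.

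Between E12.5 and E16.5, 16 of the 30 members rose in cardiomyocytes, 7 fell and 7 did not pass the test, and members of the same enzyme family moved in opposite directions. Over all 14810 genes tested, 57.4% passed (29.1% higher, 28.3% lower), so the number that passed is not particular to these genes. The median log2 change was 0.21 over the members and 0.00 over all genes. When library totals took the place of TMM factors, which moved the median of all genes to -0.20, the members split into 10 higher and 13 lower. Without E16.5 replicate 2 they split into 11 and 8. Cardiomyocytes with over 50% mitochondrial UMIs, a sign of RNA quality, were 12 of 1733 in E12.5 replicate 1 and 27 of 2311 in replicate 2, then 266 of 3607 and 174 of 3482 by E16.5. The study's ceilings on mitochondrial UMIs, 7.5% at E12.5 and 15% at E16.5, remove such barcodes and others as well. The median cardiomyocyte was at 6.53% and 6.93% at E12.5 and at 10.7% and 11.1% at E16.5. Under these ceilings 12 members rose and 10 fell. There the rises of Hk2, Aldoa, Tpi1 and Pgk1 did not pass, while Pfkl, Eno1 and Bnip3 passed as lower at E16.5. The summed level of a list of stress genes that dissociation induces was 553 and 629 at E12.5 and 582 and 618 at E16.5 in these cells. Of its 10 genes, 5 rose and 2 fell, with Hspa1b (4.89 ± 0.21), Hspa1a (3.96 ± 0.11) and Atf3 (-0.66 ± 0.07) changing most. Markers of other cell types moved in the cardiomyocyte sums as well, with epicardial markers going from 63.3 and 60.8 CPM at E12.5 to 8.73 and 12.2 at E16.5, neural ones from 36.8 and 38.3 to 6.19 and 7.58 and fibroblast ones from 69.7 and 78.03 to 163 and 118. Atrial-like cells, in which 27 members differed from ventricular-like cells, went from 14.2% and 12.7% of cardiomyocytes to 7.71% and 8.10%. Within ventricular-like cells alone, Ldhb went from 463 and 414 CPM to 954 and 979 and Slc16a3 from 99.2 and 103 to 50.03 and 51.8. The part of the stress genes and of these markers in the result was not tested.

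Glucose entry showed a change of transporter. Slc2a1 (GLUT1), the insulin-independent transporter of embryonic tissue, was at 276 and 272 CPM in the cardiomyocytes of E10.5 and at 193 and 218 at E12.5, 119 and 119.5 by E14.5 and 47.1 and 50.6 by E16.5. All E16.5 libraries lay below all earlier ones, and the log2 change from E12.5 to E16.5 was -1.94 ± 0.07 (adjusted p 2.27e-13), a 3.84-fold fall. Slc2a3 (GLUT3), a transporter with high affinity for glucose, was at 56.6 and 71.7 at E10.5 and at 12.52 and 15.9 at E12.5, 15.1 and 14.8 by E14.5 and 5.52 and 5.91 by E16.5. It fell between E10.5 and E12.5 (-2.10 ± 0.12, adjusted p 3.45e-10) and again between E14.5 and E16.5 (-1.24 ± 0.11, adjusted p 6.36e-08), with overlapping values at E12.5 and E14.5. Slc2a4 (GLUT4), the insulin-responsive transporter of muscle and fat, was at 7.04 and 5.49 at E10.5 and at 10.2 and 11.4 at E12.5, 14.9 and 16.49 by E14.5 and 25.9 and 27.5 by E16.5. Each stage lay above the one before without overlap, and the log2 change from E12.5 to E16.5 was 1.43 ± 0.08 (adjusted p 2.68e-11), 2.70-fold. At P3, Slc2a1 was at 8.49 (interval 7.89 to 9.12), Slc2a3 at 0.998 (interval 0.8002 to 1.23) and Slc2a4 at 38.4 (interval 37.1 to 39.7), where intervals here and below are exact Poisson 95% intervals that cover counting error only. The P3 level was 0.174 times the mean of E16.5 for Slc2a1 and 1.44 times for Slc2a4. The part of batch in such ratios of P3 to E16.5, here and below, was not tested.

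**Figure D1:**
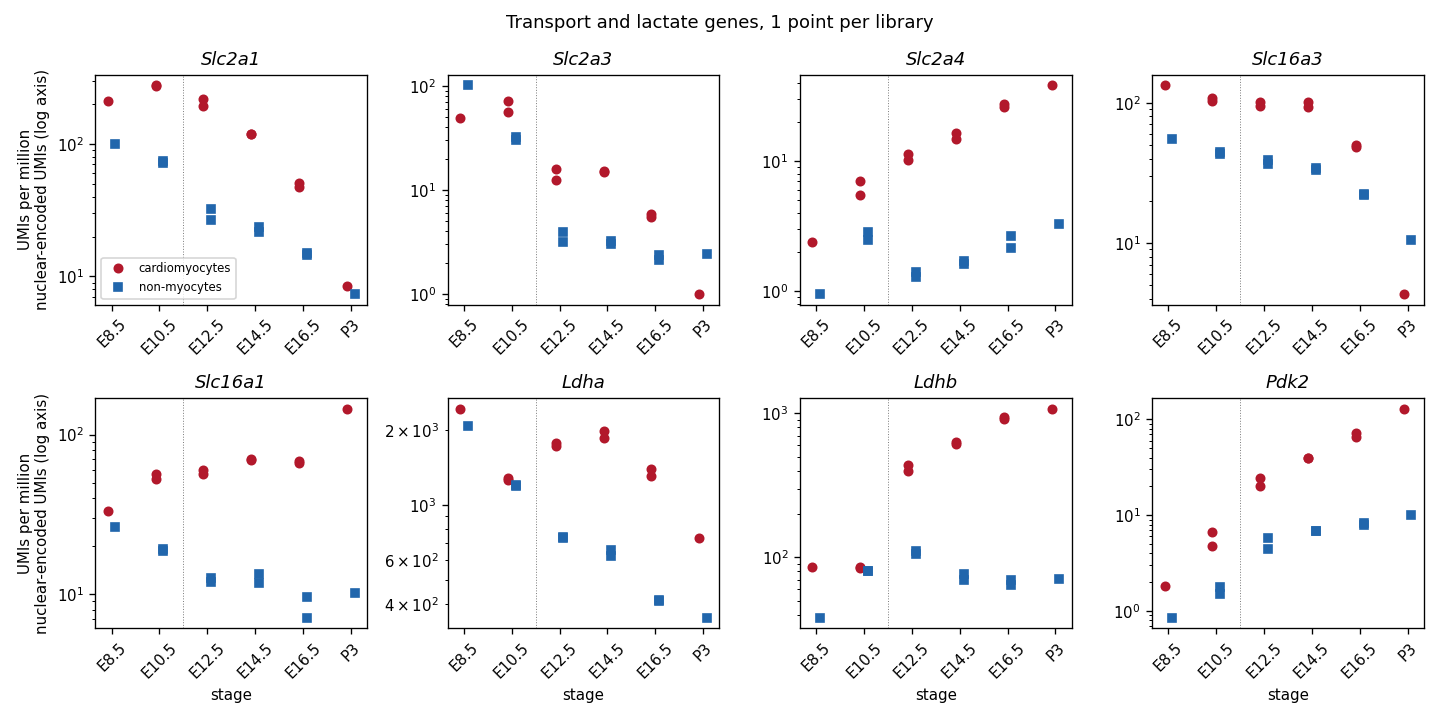
Levels (CPM of nuclear genes, log axis) of 8 transport, lactate and pyruvate genes by stage, with 1 point per library, red circles for cardiomyocytes and blue squares for non-myocytes. The dotted line separates embryos from hearts. In cardiomyocytes Slc2a1 goes from 193 and 218 at E12.5 to 8.49 at P3 and Slc2a4 from 10.2 and 11.4 to 38.4.

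In upper glycolysis, 5 of the 9 members rose from E12.5 to E16.5 in cardiomyocytes, 1 fell and 3 did not pass. Over all genes 57.4% passed (29.1% higher, 28.3% lower). The largest rises were in isozyme genes of low or middling level. Pfkm, the muscle subunit of phosphofructokinase, was at 45.4 and 51.7 at E12.5, 61.4 and 68.1 by E14.5 and 92.8 and 94.7 by E16.5, with no overlap between stages (1.08 ± 0.07, adjusted p 5.79e-10). The other subunits were Pfkl (liver) and Pfkp (platelet). Pfkp was at 86.3 and 91.7 at E12.5, 117 and 121 by E14.5 and 90.5 and 88.4 by E16.5, highest at E14.5. Pfkl was at 81.2 and 90.8 at E12.5, 86.8 and 91.1 by E14.5 and 66.5 and 73.5 by E16.5, lowest at E16.5. Neither passed between E12.5 and E16.5 (0.14 ± 0.07 and -0.16 ± 0.07, adjusted p 0.0737 and 0.0510). Aldoc, the aldolase known from brain, was at 6.46 and 7.33 at E12.5, 12.2 and 15.2 by E14.5 and 17.2 and 16.9 by E16.5 (1.44 ± 0.10, adjusted p 1.15e-09). Its levels stayed far below those of Aldoa, the muscle aldolase, which was at 1682 and 1719 at E12.5, 2091 and 2182.4 by E14.5 and 1698 and 1852 by E16.5. The E12.5 and E16.5 values of Aldoa overlapped, and its log2 change of 0.19 ± 0.07 (adjusted p 0.0315) did not pass without E14.5 replicate 1, E14.5 replicate 2 or E16.5 replicate 2. Pfkfb3, which makes the activator of phosphofructokinase, was at 5.29 and 5.73 at E12.5 and 3.91 and 3.30 at E16.5, a small fall (-0.46 ± 0.12, adjusted p 0.00296).

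The hexokinases trap glucose as glucose 6-phosphate, Hk1 as the housekeeping form bound to mitochondria and Hk2 as the insulin-regulated form of muscle. Hk1 was at 87.8 and 86.4 in E10.5 cardiomyocytes and at 165 and 177 at E12.5, 160.5 and 168 by E14.5 and 178 and 189.9 by E16.5. Hk2 was at 166 and 147 at E10.5 and at 67.4 and 102 at E12.5, 92.5 and 111 by E14.5 and 91.4 and 104 by E16.5. From E10.5 to E12.5 Hk1 rose (1.04 ± 0.08, adjusted p 1.69e-08) and Hk2 fell (-0.82 ± 0.14, adjusted p 0.000158), which exchanged their order. Their rises from E12.5 to E16.5 were small (0.24 ± 0.07 and 0.34 ± 0.12, adjusted p 0.00553 and 0.0259), and neither passed without E16.5 replicate 2. Without E12.5 replicate 1 the rise of Hk2 did not pass either. Gpi1, which turns glucose 6-phosphate into fructose 6-phosphate, was at 479.9 and 495 at E12.5, 536 and 565 by E14.5 and 432 and 476 by E16.5, highest at E14.5, and did not pass (0.03 ± 0.07, adjusted p 0.752). At P3, Pfkm stood at 183 (interval 181 to 186), 1.96 times the mean of E16.5, and Hk1 at 121. Hk2 differed between the 2 wells of the P3 matrix, at 32.8 and 96.8.

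In lower glycolysis, 4 of the 9 members rose from E12.5 to E16.5, 2 fell and 3 did not pass (57.4% of all genes passed). The muscle forms Eno3 and Pgam2 were among the 4. Eno3, the muscle enolase, was at 213 and 208 at E12.5, 283 and 297 by E14.5 and 476 and 498 by E16.5. All E16.5 libraries lay above all those of E12.5 and E14.5, and the change from E12.5 was 1.34 ± 0.08 (adjusted p 6.01e-11, 2.53-fold). Pgam2, the muscle phosphoglycerate mutase, was at 737 and 653 at E12.5, 699 and 699 by E14.5 and 957 and 933 by E16.5, with overlap between E12.5 and E14.5 but not with E16.5 (0.57 ± 0.09, adjusted p 1.85e-05). Its widely expressed counterpart Pgam1 was at 538 and 502 at E12.5, 499 and 495 by E14.5 and 323 and 312 by E16.5 and fell (-0.58 ± 0.08, adjusted p 3.83e-06). Eno1, the enolase of most tissues, was at 615 and 597 at E12.5, 709 and 777 by E14.5 and 457 and 542 by E16.5, highest at E14.5, and did not pass between E12.5 and E16.5 (-0.15 ± 0.08, adjusted p 0.136). Eno2, the neuronal enolase, reached at most 1.79 in the heart libraries and fell (-1.28 ± 0.23, adjusted p 0.000118).

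Gapdh, Tpi1, Pgk1 and Pkm, steps served here by a single listed gene each, had log2 changes between -0.07 and 0.30. Gapdh, the most abundant member, was at 7486 and 6897 at E12.5, 7469 and 7753 by E14.5 and 6278 and 6481 by E16.5 and did not pass (-0.04 ± 0.08, adjusted p 0.670), although both E16.5 levels lay below both E12.5 levels on the CPM scale. Pkm, pyruvate kinase, was at 826 and 873 at E12.5, 872 and 938 by E14.5 and 712 and 767 by E16.5 and did not pass either (-0.07 ± 0.07, adjusted p 0.456). Tpi1, which interconverts the triose phosphates, was at 996 and 939 at E12.5, 1187 and 1219 by E14.5 and 1008 and 1059 by E16.5. Pgk1, the first ATP-yielding step, was at 45.4 and 45.01 at E12.5, 69.9 and 68.9 by E14.5 and 44.6 and 57.0 by E16.5. Both were highest at E14.5. Their small rises from E12.5 to E16.5 (0.23 ± 0.08 and 0.30 ± 0.09, adjusted p 0.0163 and 0.00853) did not pass without E16.5 replicate 2. Pgk1 has near-identical copies in the genome, and Pgk1-rs7 was counted at up to 1.03 CPM, so that the values of Pgk1 are uncertain. Eno1b, a copy of Eno1, was counted at up to 1.34 CPM in cardiomyocytes. Eno1 values, also in the enolase shares below, carry the same limit. At P3, Eno3 stood at 828 (interval 822 to 834), above Eno1 at 234 (interval 231 to 237), and Pgam1 at 80.4, 0.253 times the mean of E16.5, although the wells of that matrix differed (54.4 and 146). Gapdh at P3 was 3898, 0.611 times the mean of E16.5.

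Lactate genes divided in the same way, into 2 that rose and 2 that fell (57.4% of all genes passed). Ldha encodes the M subunit of lactate dehydrogenase, which favours lactate production, and Ldhb the H subunit, typical of tissue that oxidises lactate. Ldha was at 2426 in the E8.5 cardiomyocytes, 1277 and 1263 by E10.5 and 1769 and 1718 at E12.5, 1852 and 1986 by E14.5 and 1305 and 1394 by E16.5. Its values were highest at E8.5 and, among hearts, at E14.5, and the E16.5 values lay below those of E12.5 (-0.24 ± 0.08, adjusted p 0.0124), a fall that did not pass without E16.5 replicate 1. Ldhb was at 85.6 at E8.5, 86.1 and 85.0 by E10.5 and 439 and 397 at E12.5, 608 and 629.6 by E14.5 and 918 and 936 by E16.5. Each stage from E12.5 on lay above the one before, and the gene rose from E10.5 to E12.5 (2.36 ± 0.10, adjusted p 2.58e-12) and from E12.5 to E16.5 (1.28 ± 0.08, adjusted p 2.34e-10, 2.43-fold).

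Slc16a1 (MCT1), a lactate and pyruvate transporter known for uptake, and Slc16a3 (MCT4), one known for export of lactate, moved apart. Slc16a3 was at 94.7 and 101 at E12.5, 94.0 and 101 by E14.5 and 48.1 and 49.9 by E16.5. The E12.5 and E14.5 values overlapped and those of E16.5 were lower (-0.86 ± 0.07, adjusted p 4.92e-09, 1.82-fold). Slc16a1 was at 56.6 and 60.2 at E12.5, 70.0 and 68.9 by E14.5 and 68.4 and 66.5 by E16.5, a small rise (0.34 ± 0.07, adjusted p 0.000227). At P3, Slc16a3 was at 4.31 (interval 3.89 to 4.76), 0.0879 times the mean of E16.5, although the wells differed (2.80 and 8.12). There, Slc16a1 was at 145 (interval 142 to 147), 2.15 times that mean. In the same matrix Ldha stood at 735 and Ldhb at 1072, so that Ldhb exceeded Ldha only in the P3 matrix among the 10 matrices.

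All 4 genes of pyruvate entry rose from E12.5 to E16.5 in cardiomyocytes, the catalytic subunits as well as the kinases that inactivate them. Over all genes 29.1% passed as higher. Pdha1, the alpha subunit of pyruvate dehydrogenase, was at 148 and 163 at E12.5, 195 and 190.3 by E14.5 and 263 and 268 by E16.5 (0.91 ± 0.07, adjusted p 3.17e-09). Pdhb, its beta subunit, was at 169 and 181 at E12.5, 197 and 206 by E14.5 and 266 and 266 by E16.5 (0.73 ± 0.07, adjusted p 5.47e-08). For both, all E16.5 libraries lay above all E12.5 libraries, and P3 followed at 448 and 400.2. Pdk2, a kinase known from heart, was at 1.84 at E8.5, 6.70 and 4.80 by E10.5 and 20.4 and 24.5 at E12.5, 39.9 and 39.1 by E14.5 and 65.7 and 72.7 by E16.5. It had the largest rise of the 30 members, 1.75 ± 0.08, adjusted p 1.61e-12, 3.38-fold, and stood at 128 (interval 126 to 131) at P3. Pdk1, a kinase gene induced by hypoxia, was at 74.2 and 85.5 at E12.5, 118 and 119 by E14.5 and 108 and 113 by E16.5. It rose between E12.5 and E14.5 (0.55 ± 0.07, adjusted p 9.20e-06) and did not pass between E14.5 and E16.5 (0.06 ± 0.07, adjusted p 0.542).

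**Figure D2:**
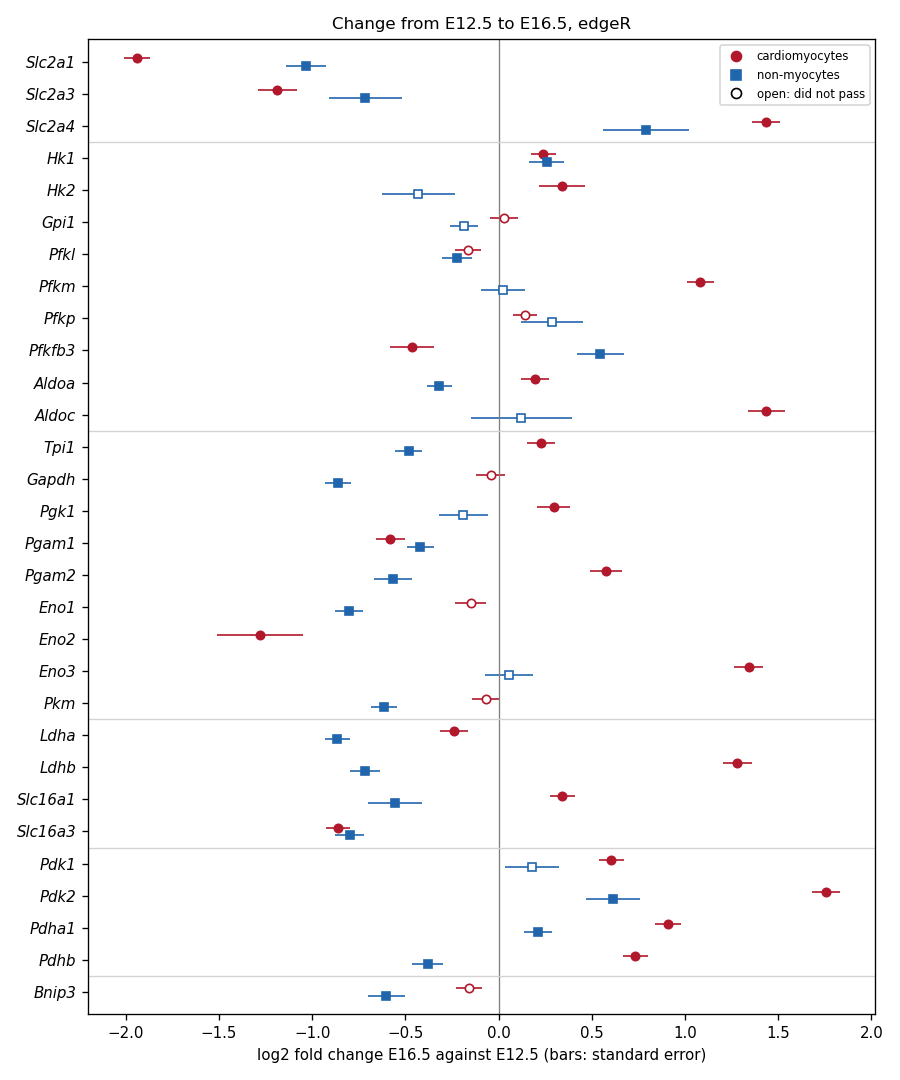
Log2 fold change from E12.5 to E16.5 with standard errors, for the 30 members grouped by role, in cardiomyocytes (red circles) and non-myocytes (blue squares). Open symbols did not pass the test, and Eno2 has no value in non-myocytes. In cardiomyocytes Slc2a1 lies farthest to the left (-1.94) and Pdk2 farthest to the right (1.75).

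Within these days, E14.5 stood apart as a high point for several members. From E12.5 to E14.5, 15 of the 30 rose and 1 fell (33.6% of all genes passed), and from E14.5 to E16.5, 10 rose and 12 fell (38.5% passed), with 9 and 17 under library totals. These comparisons share libraries with each other. Bnip3, which marks mitochondria for removal and is induced by hypoxia, was at 132 and 134 at E12.5, 189 and 195 by E14.5 and 109 and 109 by E16.5. Both E14.5 values lay above those of either neighbouring stage, with a log2 change of 0.50 ± 0.07 from E12.5 (adjusted p 1.99e-05) and -0.66 ± 0.07 to E16.5 (adjusted p 5.46e-07). Pfkp, Pgk1 and Eno1 also passed upward to E14.5 (0.39, 0.59 and 0.27) and downward from it (-0.25, -0.30 and -0.42). These changes were small. The later fall of Pfkp did not pass without E14.5 replicate 2 or E16.5 replicate 2, and that of Pgk1 without either E14.5 library or E16.5 replicate 1. The rise of Eno1 did not pass without E12.5 replicate 2 or E14.5 replicate 2. Slc2a1 was the member that fell at this step (-0.81 ± 0.07, adjusted p 9.52e-08).

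The step from E10.5 to E12.5 had the largest median change of the members (0.73, against 0.05 over all genes), with 18 members higher at E12.5, 6 lower and 6 that did not pass (43.0% of all genes passed). E10.5 samples are embryos and E12.5 samples hearts, with different limits on Tnnt2 and with 50.8% and 47.3% of cardiomyocytes atrial-like against 14.2% and 12.7%, so that stage and sampling cannot be told apart. Ldhb (2.36 ± 0.10), Pdk2 (2.03 ± 0.20), Pfkm (1.86 ± 0.14) and Pdhb (1.46 ± 0.09) had the largest rises. Slc2a3, Bnip3, Pgk1, Hk2, Pfkfb3 and Slc2a1 were the members that fell, from -2.10 to -0.35. The fall of Slc2a1 and the rise of Slc2a4 did not pass under the study's ceilings on mitochondrial UMIs. Among the rises, those of Slc2a4 and Pdk1 did not pass without E10.5 replicate 2, nor that of Pdk1 without E12.5 replicate 2. Gapdh was at 3887 and 3857 at E10.5 and at 7486 and 6897 at E12.5 (0.96 ± 0.08, adjusted p 2.16e-08). The stress genes moved with this step as well, from 208 and 217 to 553 and 629 CPM (8 of 10 rose). Markers of other cell types moved too. Erythroid genes in the cardiomyocyte sums went from 573 and 1393 CPM at E10.5 to 3423 and 5123 at E12.5, and neural markers from 142 and 121 to 36.8 and 38.3. The part of these lists in the result was not tested.

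The E8.5 matrix adds 151 cardiomyocytes, with values but no test. Chambers are not described at this stage, where the summed atrial markers were no higher in the 91 atrial-like barcodes (25594 CPM) than in the 8 ventricular-like ones (29003). Slc2a1 was at 209 (interval 194 to 224), Slc2a3 at 49.0 (interval 42.2 to 56.6) and Slc2a4 at 2.37 (interval 1.08 to 4.501). Slc16a3 was at 133 (interval 122 to 145) and held 80.2% (interval 76.9% to 83.2%) of the UMIs of the Slc16a pair, the highest share of that gene in cardiomyocytes as a whole. Slc2a4 held 0.912% (interval 0.418% to 1.72%) of the glucose transporters and Ldhb 3.41% (interval 3.05% to 3.79%) of lactate dehydrogenase. Among the cardiomyocyte libraries those were the lowest shares of both genes, as was the 33.1% (interval 29.6% to 36.8%) of Hk1 among the hexokinases. Gapdh, at 5369, lay between its E10.5 and E12.5 levels.

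Isozyme shares, the part that 1 gene takes of the UMIs of its family, do not depend on how libraries are scaled. UMIs count transcript ends and need no length correction, but capture may differ between genes. In cardiomyocytes the share of Slc2a4 among Slc2a1, Slc2a3 and Slc2a4 was 4.72% and 4.66% at E12.5, 10.0% and 10.9% by E14.5, 33.0% and 32.7% by E16.5 and 80.2% (interval 79.0% to 81.4%) at P3, with an exact Clopper-Pearson 95% interval. That of Ldhb among the lactate dehydrogenases was 19.9% and 18.8%, 24.7% and 24.1%, 41.3% and 40.2% and 59.3% (interval 59.1% to 59.6%) at the same stages. For Slc16a3 against Slc16a1 it was 62.6% and 62.6%, 57.3% and 59.5%, 41.3% and 42.9% and 2.89% (interval 2.61% to 3.19%). In each of these families the libraries of a stage lay close together and the E16.5 shares stood apart from those of E12.5. The wells of the P3 matrix differed by more than these intervals for Ldhb (62.3% and 51.3%) and Slc16a3 (2.18% and 4.06%), but not for Slc2a4 (79.9% and 80.8%). With 2 libraries a stage, an exact permutation test cannot reach the threshold, and none was made.

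Of the muscle forms, Eno3, Pgam2 and Pfkm gained in the same way. Eno3 held 25.7% and 25.8% of the enolase UMIs at E12.5, 51.0% and 47.9% at E16.5 and 77.96% (interval 77.7% to 78.2%) at P3. Pgam2 held 57.8% and 56.6% of phosphoglycerate mutase at E12.5, 74.8% and 75.0% at E16.5 and 91.1% (interval 90.9% to 91.3%) at P3. Pfkm held 21.3% and 22.1% of phosphofructokinase at E12.5, 37.1% and 36.9% at E16.5 and 65.7% (interval 65.1% to 66.3%) at P3. The P3 wells stood at 77.8% and 78.4% for Eno3, 93.7% and 85.6% for Pgam2 and 69.4% and 57.7% for Pfkm, with those of Pgam2 and Pfkm far outside the intervals of the whole matrix. For Eno3, Pgam2 and Pfkm the E14.5 shares (28.5% and 27.6%, 58.4% and 58.5% and 23.2% and 24.3%) were nearer to E12.5 than to E16.5. The share of Hk1 among the hexokinases changed less within hearts, from 71.0% and 63.4% at E12.5 to 66.1% and 64.5% at E16.5, after 34.6% and 37.0% at E10.5, so that Hk2 did not gain clearly. Aldoa, the muscle aldolase, lost a small share, as Aldoc went from 0.382% and 0.425% of aldolase at E12.5 to 1.00% and 0.903% at E16.5.

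**Figure D3:**
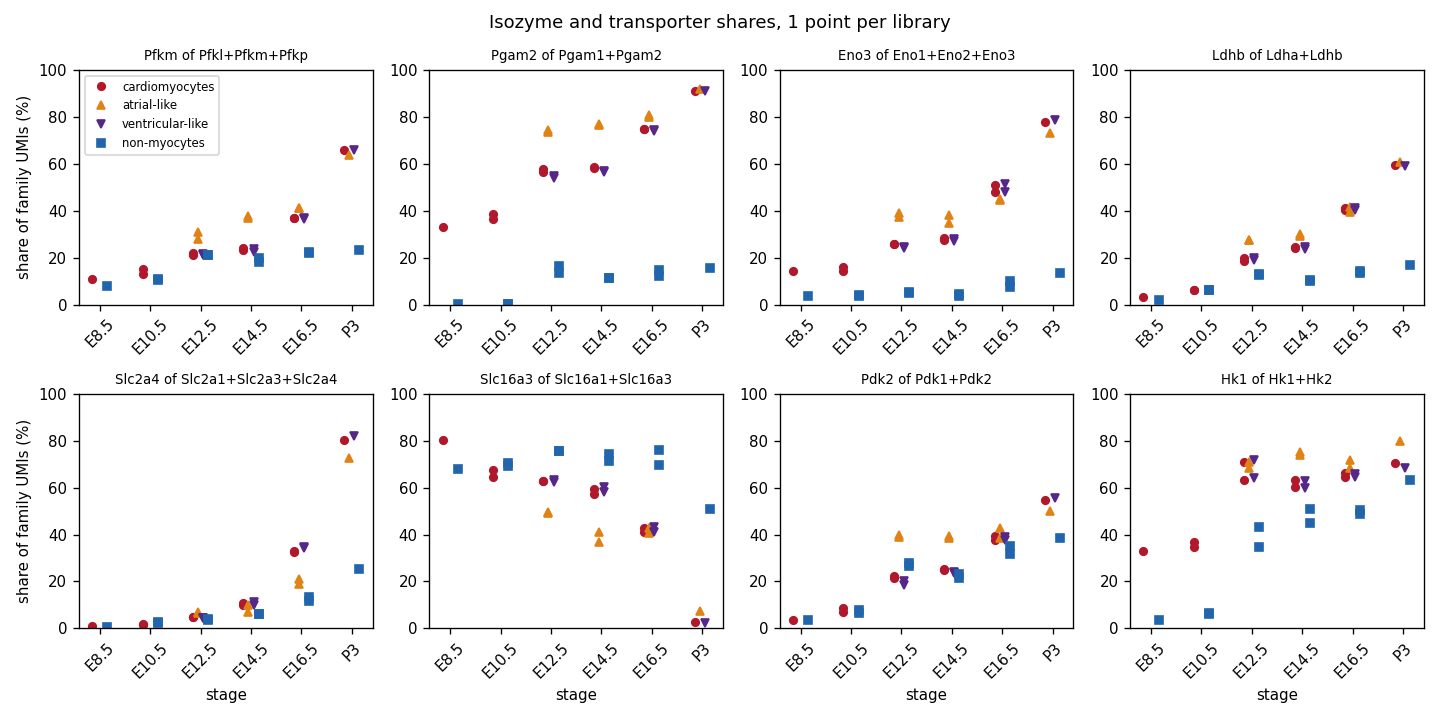
Share of 1 gene in the UMIs of its family (%), by stage, with 1 point per library and symbols for cardiomyocytes, atrial-like, ventricular-like and non-myocyte barcodes. In cardiomyocytes the Slc2a4 share goes from 4.72% and 4.66% at E12.5 to 80.2% at P3 and that of Slc16a3 from 62.6% and 62.6% to 2.89%. Chamber values are drawn from E12.5 on.

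Over the 6 libraries of E12.5 to E16.5, 8 of 10 such shares differed between cardiomyocytes and non-myocytes of the same library (exact sign-flip permutation test, two-sided, p = 0.0312 for each, the smallest it allows, and 0.0391 after adjustment over the 10). Ldhb held 28.2 ± 10.0% (SD, n = 6 libraries) of its family in cardiomyocytes and 12.3 ± 1.71% in non-myocytes. The shares of Pgam2 and Eno3 are among the 8, but their non-myocyte UMIs lie near a background given in the next paragraph, so that these shares are not read as expression there. Slc16a3 was the one of the 8 with the lower share in cardiomyocytes, 54.4 ± 9.73% against 73.7 ± 2.70%, in 6 of 6 libraries. The shares of Pdk2 and Pdhb did not pass, with p = 0.75 and 0.125 in the exact test. Under the study's mitochondrial ceilings 0 of the 10 passed after adjustment. Of the 8, 6 still differed in the same direction in 6 of 6 libraries there (p = 0.0312, adjusted 0.0521, exact test), while Pfkm was higher in 4 and Slc2a4 in 5 of 6.

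Compared within libraries, cardiomyocytes carried more transcripts of nearly every member than the non-myocytes summed as 1 class. Of the 30, 29 were higher in cardiomyocytes, 0 were lower and Pfkfb3 did not pass (-0.38 ± 0.17, adjusted p 0.0752), where 78.4% of all genes passed (38.4% higher, 40.0% lower). The median log2 difference was 2.26 over the members and -0.02 over all genes. The largest differences were those of Pgam2 (4.70 ± 0.21, adjusted p 3.78e-07) and Eno3 (4.60 ± 0.23, adjusted p 6.42e-07), and the smallest that passed was that of Pgam1 (1.17 ± 0.09, adjusted p 7.21e-06). Among the transporters, Slc2a4 was at 25.9 and 27.5 in cardiomyocytes and 2.16 and 2.66 in non-myocytes of E16.5 (3.39 ± 0.11, adjusted p 8.34e-08 over all stages). Myl2, which non-myocytes should lack, was at 3.00% to 6.21% of its cardiomyocyte level in them, taken here as a background. Free RNA, doublets and cardiomyocytes under the Tnnt2 limit cannot be told apart in it. Pgam2 (3.01% to 7.29%) and Eno3 (2.94% to 7.71%) lay near it, so their non-myocyte values are not read as expression. The other members lay above the highest Myl2 value in each library, the nearest being Ldhb (6.84% to 26.5%), Aldoc (7.43% to 21.8%) and Pfkp (7.89% to 11.8%), and the farthest Pfkfb3 (95.6% to 257%). For Ldhb the lowest values were those of E16.5, 7.54% and 6.84%, where Myl2 was at 3.20% and 3.03%.

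In the non-myocytes of the heart libraries, members fell more often than they rose between E12.5 and E16.5. Of the 29 tested, 16 fell, 5 rose and 8 did not pass (50.9% of all genes passed), with a median log2 change of -0.38 against 0.00 over all genes. The count of rises is the less stable side, with 2 by DESeq2 and 3 under library totals. Gapdh was at 2259 and 2221 at E12.5, 1694 and 1762 by E14.5 and 1256 and 1259 by E16.5 in these cells (-0.86 ± 0.07, adjusted p 3.32e-06). Ldha was at 742 and 735 at E12.5, 622 and 656 by E14.5 and 411 and 416 by E16.5 (-0.86 ± 0.07, adjusted p 2.34e-06). Slc2a1 was at 26.6 and 32.3 at E12.5, 21.6 and 23.6 by E14.5 and 14.4 and 14.9 by E16.5 (-1.04 ± 0.11, adjusted p 1.78e-05). For these 3 genes each stage lay below the one before. The members that rose were Hk1, Pfkfb3, Slc2a4, Pdk2 and Pdha1, from 0.21 (Pdha1) to 0.79 (Slc2a4). The rises of Hk1 and Pdha1 did not pass when any 1 of 5 libraries (all but E12.5 replicate 2) was left out, and that of Slc2a4 without E12.5 replicate 1 or E16.5 replicate 2. Among the falls, that of Slc16a1 did not pass without E16.5 replicate 2, that of Slc2a3 without E12.5 replicate 2 or E16.5 replicate 1, and that of Pfkl in 12 of 18 alternatives, in 1 of which it changed sign.

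The make-up of this class changed over the same days. Summed fibroblast markers went from 1163 and 1249 to 5967 and 5617 CPM, macrophage markers from 100.2 and 45.9 to 704 and 545, and globin and other erythroid genes from 8348 and 6217 to 16474 and 17559. Stress genes went from 1007 and 1023 to 2913 and 3031, and 10 of 10 rose. Non-myocytes with over 50% mitochondrial UMIs were 181 of 2251 in E12.5 replicate 1 and 214 of 2919 in replicate 2, then 601 of 1986 and 428 of 1637 by E16.5. Under the study's mitochondrial ceilings 16 members fell and 4 rose. The part of the markers and stress genes in the falls was not tested. Fewer cells that express a gene and less RNA of it in each cell cannot be told apart in sums over a class.

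The change itself differed between the classes. For 21 members the E16.5 against E12.5 change was more positive in cardiomyocytes than in non-myocytes, for 4 more negative, and for 5 the difference did not pass (43.9% of all genes passed, 21.9% more positive and 22.0% more negative), with a median of 0.55 against -0.02 over all genes. Ldhb differed most, by 1.96 ± 0.07, adjusted p 1.24e-12, as it rose in cardiomyocytes (1.28) and fell in non-myocytes (-0.72), where it went from 110.3 and 105 to 69.3 and 64.0. Gapdh differed by 0.79 ± 0.06, adjusted p 1.11e-08. Pfkfb3, Slc2a1, Slc2a3 and Pgam1 were the members with the more negative change in cardiomyocytes, from -1.03 to -0.20. The difference of Slc2a3 did not pass when any 1 of 5 libraries (all but E14.5 replicate 1) was left out, nor by DESeq2, and that of Gpi1 in 9 of 17 alternatives. That of Pgam1 did not pass without E12.5 replicate 1, E14.5 replicate 2 or E16.5 replicate 2, and those of Slc2a4 and Pdk1 without E12.5 replicate 2 or E16.5 replicate 1.

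Among non-myocytes, classes were named from at least 3 detected markers, and some members differed in level between them. Epicardial-like barcodes, 24 to 124 per heart library of E12.5 to E16.5 and 14 at P3, carried Slc2a1 at 59.6 and 67.9 at E12.5, 72.4 and 112 by E14.5 and 61.1 and 67.9 by E16.5. Endothelial-like barcodes of the same libraries stood at 18.5 ± 2.02 (SD, n = 6), below every epicardial-like value, after 117 and 117 in the E10.5 embryos. Slc2a1 was not particular to epicardial-like barcodes at E12.5, where barcodes of no named class were at 57.5 and 70.3 and erythroid-like ones at 15.6 and 102. At E16.5 the unnamed barcodes were at 19.1 and 19.1 and the erythroid-like ones at 2.39 and 5.18. Slc16a1 in epicardial-like barcodes was at 45.02 and 61.5 at E12.5, 95.2 and 102 by E14.5, 125 and 107 by E16.5 and 316 at P3, against 7.43 ± 2.39 (SD, n = 6) in fibroblast-like barcodes. Values of Slc2a1 did not overlap between epicardial-like and endothelial-like barcodes, nor those of Slc16a1 between epicardial-like and fibroblast-like ones. Hk2 was at 118 ± 9.30 (SD, n = 5) in macrophage-like barcodes, also without overlap with endothelial ones (11.1 ± 5.73 (SD, n = 6)). In each of those 5 libraries the macrophage-like level of Hk2 lay above that of the cardiomyocytes. At E16.5 the epicardial-like values of Slc2a1 and Slc16a1 lay above the cardiomyocyte means of 48.9 and 67.4.

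Lower Gapdh and Ldha at E16.5 were also seen within fibroblast-like and endothelial barcodes, while Slc2a1 was lower in the former but not in the latter. Fibroblast-like barcodes had Gapdh at 2745 and 2611 at E12.5, 1551 and 1675 by E14.5 and 1172 and 1207 at E16.5, and endothelial ones at 1799 and 1733, 1845 and 1829.8 and 1208 and 1209.6. The fibroblast-like levels went down at each stage, while the endothelial ones were slightly higher at E14.5 than at E12.5 and lowest at E16.5. Ldha in fibroblast-like barcodes went from 1028 and 939 at E12.5 to 396 and 404 at E16.5, and in endothelial ones from 575 and 582 to 432 and 456. These are values per class with 2 libraries a stage, without a test.

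Between chambers, atrial-like cardiomyocytes had less of nearly all members. Over the 6 libraries of E12.5 to E16.5, in a fit blocked on library, 25 members were lower in atrial-like than in ventricular-like cells. In that fit 2 were higher and 3 did not pass, where 42.8% of all genes passed (20.4% higher, 22.4% lower). The median log2 difference was -0.53 over the members and 0.00 over all genes. Not all of the 25 were lower in each library on the CPM scale. Pfkm and Pdha1 were higher in atrial-like cells of 3 of 6 libraries and Eno3 of 2 of 6. Library totals in place of TMM factors moved the median of all genes to 0.16. There Aldoc, Eno3, Pdha1, Pfkm and Slc2a3 did not pass. Slc2a3 did not pass without either E14.5 library either. Ldha was at 856 and 819.9, 814 and 863 and 727 and 747 in atrial-like cells at E12.5, then E14.5, then E16.5, and at 1875 and 1779.5, 1944 and 2066 and 1356 and 1457 in ventricular-like ones. All atrial-like values lay below all ventricular-like ones, with the largest difference of the list (-1.25 ± 0.07, adjusted p 3.63e-07, 2.38-fold). Slc16a3 (-1.18 ± 0.11, adjusted p 1.70e-05) and Pgk1 (-1.07 ± 0.08, adjusted p 3.44e-06) came next. Gapdh differed by -0.54 ± 0.05 (adjusted p 1.01e-05) and Bnip3 by -0.92 ± 0.16 (adjusted p 0.000867).

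The 2 members that were higher in atrial-like cells were Pgam2 and Pdk2. Pgam2 was at 1163 and 1022, 1104 and 1182 and 1347 and 1254 in atrial-like cells at the 3 stages and at 673 and 602, 664 and 670.3 and 925 and 906 in ventricular-like ones, without overlap (0.54 ± 0.06, adjusted p 3.32e-05). Pdk2 (0.45 ± 0.16, adjusted p 0.0436) did not pass in 6 of 18 alternatives, among them those that left out any 1 library of E12.5 or E14.5, and Pfkm (-0.23 ± 0.08, adjusted p 0.0414) in 10. Stress genes were higher in atrial-like cells (6 of 10, with 1 lower), with summed levels of 932 and 1081 at E12.5 and 862 and 942 at E16.5 against 498 and 571 and 553 and 584. Pooled mitochondrial UMIs at E16.5 were 8.65% and 9.12% in atrial-like and 11.6% and 11.6% in ventricular-like cells. Endothelial and neural markers were also higher in atrial-like cells of 6 of 6 libraries. The endothelial sums were 64.7 and 71.2 CPM at E12.5 and 56.5 and 61.6 at E16.5 in atrial-like cells, against 47.5 and 42.5 and 31.5 and 40.6 in ventricular-like ones. For neural markers they were 52.8 and 52.7 and 19.0 and 24.6, against 31.9 and 35.4 and 5.05 and 6.02. The part of the stress genes and of these markers in the differences was not tested. Under the study's mitochondrial ceilings 25 members were lower and 1 higher. Of the 10 isozyme shares, 0 passed between chambers after adjustment over the 10 (exact sign-flip permutation test, smallest possible p = 0.0312, adjusted 0.0625), and 5 had p = 0.0312 before it. These were the shares of Pfkm, Aldoc, Pgam2 and Pdk2, higher in atrial-like cells of 6 of 6 libraries, and that of Pdhb, lower in 6 of 6.

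The chamber difference changed between E12.5 and E16.5 for 17 members, more positive in 6 and more negative in 11 (17.4% of all genes passed, 9.83% more positive and 7.52% more negative). Slc2a1 changed most in the positive direction (1.01 ± 0.08, adjusted p 1.04e-11). It was at 188 and 196 in atrial-like and 191 and 209 in ventricular-like cells at E12.5, with overlap, and at 79.9 and 90.4 and 44.2 and 47.1 at E16.5, without overlap. The log2 difference was -0.22 ± 0.05 at E12.5, 0.01 ± 0.06 by E14.5 and 0.79 ± 0.06 by E16.5, so that the difference went from below 0, where the CPM levels overlapped, to above 0. At P3 it was at 13.0 (interval 11.3 to 14.9) in atrial-like and 7.51 (interval 6.89 to 8.17) in ventricular-like cells.

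Slc2a4 turned the other way, from 0.41 ± 0.14 at E12.5 to -0.41 ± 0.12 at E16.5 (-0.82 ± 0.19, adjusted p 0.00204), with 13.99 and 15.9 against 9.58 and 10.51 at E12.5 and 19.6 and 24.9 against 26.5 and 27.7 at E16.5. Values at E12.5 were higher in atrial-like cells and those at E16.5 lower, with no overlap at either stage. At P3 the chambers stood at 37.3 and 38.8. The turn of Slc2a4 did not pass when chambers were assigned from Myl2 and Sln, nor when barcodes were thinned to 2000 UMIs. Its log2 change there was between -0.85 and -0.81. Pdk2, higher in atrial-like cells at E12.5 (1.00 ± 0.09), differed by -0.15 ± 0.08 at E16.5, which did not pass, and the change itself was -1.15 ± 0.12, adjusted p 5.77e-09. Eno3 (-0.85), Slc16a1 (-0.73), Pfkm (-0.46) and Ldhb (-0.42) also moved toward the ventricular-like side. Pgam1 (0.54), Hk1 (0.38) and Eno1 (0.37) moved toward the atrial-like side. Under the study's mitochondrial ceilings the changes of Ldha, Pdha1, Pfkp and Slc2a3 did not pass. Those of Pfkp, Slc2a3 and Pdhb did not pass by DESeq2, nor without E16.5 replicate 2, and that of Pkm not without E16.5 replicate 1.

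**Figure D4:**
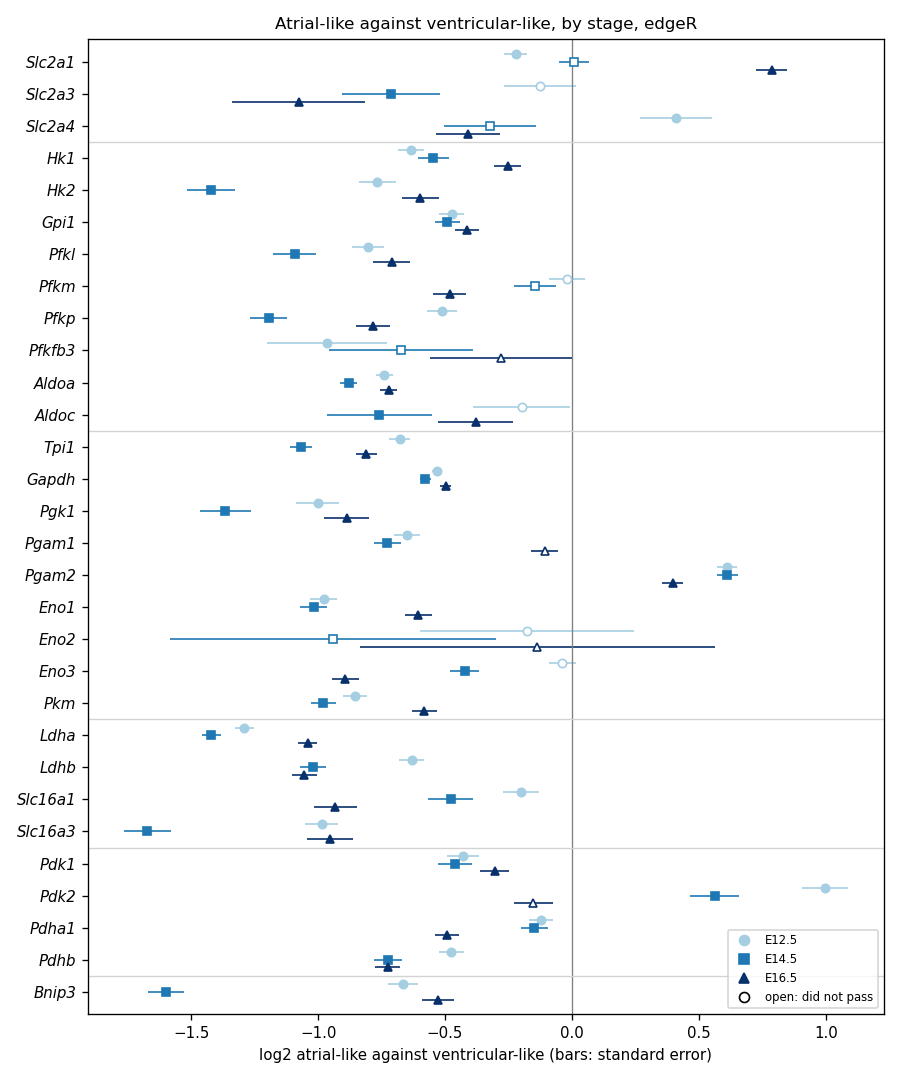
Log2 difference of atrial-like against ventricular-like cardiomyocytes with standard errors, at E12.5 (pale circles), E14.5 (squares) and E16.5 (dark triangles), for the 30 members grouped by role. Open symbols did not pass the test. Most points lie left of 0, Pgam2 lies right of it at each stage, and Slc2a1 moves from -0.22 to 0.79.

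Bnip3, Slc16a3 and Hk2 had their largest differences between chambers at E14.5. The difference of Bnip3 was -0.67 ± 0.06 at E12.5, -1.60 ± 0.07 by E14.5 and -0.53 ± 0.06 by E16.5. In ventricular-like cells Bnip3 was at 130.0 and 128, 197 and 203 and 111 and 112, and in atrial-like cells at 94.0 and 88.5, 78.2 and 66.5 and 88.6 and 77.0 at the same stages. The high point at E14.5 was thus in the ventricular-like values, and the atrial-like ones did not show it. Slc16a3 showed a like order (-0.99 ± 0.06, -1.67 ± 0.09 and -0.95 ± 0.09), as did Hk2 (-0.77 ± 0.07, -1.42 ± 0.10 and -0.60 ± 0.07). Markers of other cell types differed between the chambers at E14.5 as well. Erythroid genes were at 1273 and 1109 CPM in atrial-like and 5627 and 4265 in ventricular-like cells, against overlapping values at E12.5 (6219 and 2562 and 2718 and 5592) and E16.5 (7321 and 3760.3 and 4866 and 7507). Epicardial markers at E14.5 were at 14.4 and 15.9 in atrial-like and 50.2 and 49.2 in ventricular-like cells, and endothelial ones at 88.6 and 108 and 33.9 and 29.9. Their part was not tested, and differences at E14.5 were not tested against those of the other stages.

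Other genes of glucose metabolism, a list of 61 that holds further transporters, glycogen enzymes, the pentose phosphate route and the malate-aspartate shuttle, were described in the same fits. In cardiomyocytes 26 of the 50 tested rose from E12.5 to E16.5 and 11 fell, beside the 57.4% of all genes that passed. Emb, a glycoprotein that carries lactate transporters to the membrane, fell by 4.67 ± 0.17 on the log2 scale. Hkdc1, a hexokinase-like gene, also fell but stood at so few UMIs that no fold is given. Of 19 hypoxia-responsive genes outside the members, 10 rose and 6 fell over the same days, led by Ndrg1 (3.37 ± 0.10), Egln3 (2.67 ± 0.08) and Bhlhe40 (1.26 ± 0.10). The summed level of the list went from 4917 and 4444 CPM at E12.5 to 4162 and 3945 at E16.5, lower without overlap. In cardiomyocytes Mif held 86739 to 141287 UMIs per heart library of E12.5 to E16.5 and Fam162a 33844 to 61835, against 115 to 1697 for Ndrg1. The sum thus says little of the other genes. Slc2a1, Ldha, Slc16a3 and Bnip3, which hypoxia is known to induce as well, had log2 changes of -1.94, -0.24, -0.86 and -0.16, the last of which did not pass (adjusted p 0.0537). Pdk1, Pgk1 and Hk2, also known to be induced by hypoxia, rose, with 0.61, 0.30 and 0.34, so that such members did not share a direction.

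Between chambers, 23 of 47 other glucose genes were lower in atrial-like cells and 5 higher, beside 22.4% and 20.4% of all genes. Slc2a10 (2.01 ± 0.41) and Slc2a13 (1.79 ± 0.44), transporters of the Slc2a family, were higher and Pgm1, a phosphoglucomutase gene, lower (-1.08 ± 0.25). All 3 rest on few UMIs, with 6 to 12 for Slc2a10, 0 to 10 for Slc2a13 and 2 to 6 for Pgm1 per library in atrial-like cells. Of the hypoxia-responsive genes 7 were lower and 3 higher. Fam162a (-1.11 ± 0.10) and Mif (-1.07 ± 0.11) were lower, while Adm, which encodes the vessel-relaxing peptide adrenomedullin, was higher (3.08 ± 0.12).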

How the data were processed

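Single cells of the hearts and embryos were captured with the 10x Genomics single cell 3′ system. The labels name version 2 chemistry and trypsin, and the methods of the study version 3 and collagenase II. The values are UMI counts per gene and barcode that the authors deposited, aligned to mm10 with Cell Ranger (2.1.1 in the submitters' processing notes, 3.0.0 and 3.1.0 in the matrix headers). Groups follow the labels of 13 samples. The 10 matrices analysed hold all of these but E8.5 replicate 1. The members, roles and other lists were chosen with earlier results of these data known. All 30 members are named, and of the glucose and hypoxia lists, where described, the 3 genes per comparison with the largest log2 change that passed (of the stress list between E12.5 and E16.5 cardiomyocytes only). A gene of those lists is not reported here.

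UMIs were summed per library and class and fitted with edgeR 4.0.16 (quasi-likelihood test, TMM factors, filterByExpr, R 4.3.3). Cardiomyocyte stage fits held the 8 libraries of E10.5 to E16.5 and non-myocyte ones the 6 heart libraries, cardiomyocyte against non-myocyte and chamber fits blocked on library, and both had interaction fits. Alternatives covered DESeq2 1.42.0, scaling, filters, Tnnt2 and mitochondrial limits (the study's ceilings of 5% to 20%), Scrublet doublets (scanpy 1.11.5), thinning to 2000 UMIs and single libraries left out. Exact tests used scipy 1.17.1. Non-myocyte classes needed 3 detected markers and a lead of 0.2 in the share of markers detected. No doublets were removed in the main sums. The fits were tested on simulated data. The log-level differences of replicate 1 from replicate 2 correlated between stages at 0.0008 to 0.0714, under 0.1, so same-numbered replicates were not paired. RefSeq promoters are of GRCm38.p6.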

Additional observations from a re-analysis of the deposited data

Results flagged for a closer look

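The change from E12.5 to E16.5 differed between cardiomyocytes and non-myocytes for 25 members by the interaction term (43.9% of all genes passed). For 7 of them the classes moved in opposite directions, each past the threshold in both (edgeR). How many of all genes did so was not counted, where 57.4% passed in cardiomyocytes and 50.9% in non-myocytes. The difference was 1.96 for Ldhb (1.28 in cardiomyocytes, -0.72 in non-myocytes), 1.11 for Pgam2 (0.57 and -0.57) and 1.08 for Pdhb (0.73 and -0.38). It was 0.86 for Slc16a1 (0.34 and -0.56), 0.67 for Tpi1 (0.23 and -0.48) and 0.47 for Aldoa (0.19 and -0.32). Pfkfb3 went the other way, with a difference of -1.03 (-0.46 and 0.55). The non-myocyte values of Pgam2 lie near the background level of Myl2 in those cells, and the calls of Aldoa and Tpi1 in cardiomyocytes were lost without E16.5 replicate 2.

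The chamber difference changed between E12.5 and E16.5 for 17 members (17.4% of all genes passed). It turned for Slc2a1, by 1.01 (from -0.22 to 0.79), and for Slc2a4, by -0.82 (from 0.41 to -0.41). In the Slc2a1 case the CPM levels of the chambers overlapped at E12.5.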

How the results depend on the processing

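Of 5012 values of single members under alternatives, 4721 kept their side of the threshold, 205 lost it and 77 passed it. Another 9 changed sign and passed in the main or the alternative setting. Sign changes of values that passed in neither setting are among the 4721 and were not counted apart. Thinning each barcode to 2000 UMIs lowered the number of members that passed from 16 to 9 for E14.5 against E12.5, from 25 to 15 for the stage change between classes and from 17 to 6 for the chamber change. All genes that passed went down as well, from 4980 of 14810 to 1573 of 11554 in the first. In the others they went from 6856 of 15603 to 2764 of 12319 and from 2357 of 13585 to 551 of 9962. Thinning also turned Pfkfb3 (0.35) in cardiomyocytes, Pfkl (0.0392) and Pgam2 (0.0165) in non-myocytes, Slc2a3 (0.31) between classes, and Hk1 (-0.0026), Pfkp (0.0449) and Slc2a3 (0.55) in the chamber change. Library totals turned Gpi1 (-0.18) and Aldoa (-0.0124) in cardiomyocytes from E12.5 to E16.5. The study's mitochondrial ceilings lowered the isozyme shares that passed between classes from 8 to 0, with 6 at an adjusted p of 0.0521 in the exact test, since at least 7 of 10 must reach its smallest p to pass. The cause of the other moves was not tested. Leaving out 1 library gave 19 to 24 members for E16.5 against E12.5, 12 to 17 for E14.5 against E12.5, 18 to 23 for E16.5 against E14.5 and 22 to 25 for E12.5 against E10.5. Of all 15092 to 15278 genes tested, 7025 to 8633, 2780 to 5049, 3551 to 6205 and 4673 to 6234 passed in the same order. For members it gave 17 to 21 in non-myocytes, 29 to 30 between classes, 24 to 26 between chambers, and 21 to 25 and 14 to 18 for the 2 changes. Over all genes it gave 5701 to 6955, 11743 to 12065, 4848 to 5303, 5457 to 6942 and 1638 to 2687 in that order. The replicate block, for numbers that do not pair the samples, gave 25, 18, 22 and 25 members in the 4 cardiomyocyte comparisons and 23 in non-myocytes. All genes that passed there were 8747, 5332, 6022 and 6390 of 14810, and 7754 of 14220 in non-myocytes. With no replicate block 30 members differed between classes (12654 of all 15603 genes) and 27 between chambers (6408 of 13585). Abundant members (Aldoa, Tpi1 and Eno1 among them) also lost calls when thinned, and Eno2, Slc2a3 and Pfkfb3 rest on few UMIs.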

Other observations

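Between E10.5 and E12.5, where embryos give way to hearts, 24 of 50 other glucose genes rose in cardiomyocytes and 3 fell (edgeR, 43.0% of all genes passed). Pygm, the muscle glycogen phosphorylase, rose by 2.45 ± 0.12 on the log2 scale, and the malate dehydrogenases Mdh1 and Mdh2 of the malate-aspartate shuttle by 2.24 ± 0.09 and 1.67 ± 0.08. Of 19 hypoxia-responsive genes outside the members, 1 rose and 9 fell, among them Adm (-1.99 ± 0.16), Egln3 (-1.54 ± 0.17) and Ddit4 (-1.43 ± 0.14).

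In the non-myocytes of the hearts, 15 of 48 other glucose genes fell from E12.5 to E16.5 and 9 rose (50.9% of all genes passed), with Gyg, the primer of glycogen, at -1.41 ± 0.08, Pygl, the liver glycogen phosphorylase, at 1.29 ± 0.19 and Emb, a partner of lactate transporters, at -1.21 ± 0.11. Of the hypoxia-responsive genes 11 of 19 were higher and 3 lower, while their summed level went from 2468 and 2371 CPM at E12.5 to 1624 and 1589.5 at E16.5. Mif held 9047 to 65869 UMIs per heart library in these cells, against 174 to 553 for Ndrg1, so that the sum says little of the other genes. Ndrg1 (2.59 ± 0.11), Adm (2.48 ± 0.23) and Ankrd37 (2.00 ± 0.10) rose most, while Ldha and Slc2a1 changed by -0.86 and -1.04. Compared with non-myocytes, cardiomyocytes had higher levels of 36 of 53 other glucose genes and lower levels of 13 (38.4% and 40.0% of all genes), with Pygm at 4.53 ± 0.11. Fbp1, a gluconeogenic enzyme, and Slc2a9, a urate transporter, were among the lower, at 0 and 0 to 3 UMIs per library in cardiomyocytes and 2 to 9 and 13 to 25 in non-myocytes, too few for a fold.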
